A study of Arabidopsis thaliana with 4 samples.

Results

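This comparison sets seedlings of a line labelled hfr1 pil1 against the Arabidopsis thaliana accession Col-0 in plain white light, the condition in which neither genotype received a shade signal. All loci that averaged at least 10.8 normalized counts over the 4 deposited columns were taken, which were 20116 of 33558 loci, and 20099 of them could be tested. RNA came from shoots of 7-day-old seedlings grown without sugar on agar at 22 °C, under white light that stayed on throughout at 30 to 50 µE and had a red to far-red ratio (R:FR) of 1.2. The line is labelled hfr1-4pil1-2, which names a double mutant of HFR1 and PIL1, and Col-0 is the accession without these mutations. Whether the plants carried both mutations rests on the label and was not checked here. A second pair of groups had the same genotypes and age but spent the last 96 h in low R:FR (13 µE of red, 1.23 µE of blue and 20 µE of far-red). It is used here only to show where the white light difference was also present, and a 1 h treatment named in the labels was not analysed here.

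Both HFR1 and PIL1 belong to the basic helix-loop-helix (bHLH) family of proteins that accumulate when plants sense neighbours through low R:FR. HFR1 forms dimers with PHYTOCHROME INTERACTING FACTORS (PIFs) that cannot bind DNA well, and so acts as a brake on PIF-driven elongation and auxin synthesis. In open white light phytochrome is largely active, PIFs are degraded, and the transcripts of HFR1 and PIL1 are low. White light therefore shows the line before shade brings the brake into play.

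Each Col-0 column was a mean of 2 libraries that could be separated into whole reads, and each column labelled hfr1 pil1 held 1 library. The white light libraries had size factors of 1.26 and 0.834 (Col-0) and 1.298 (hfr1 pil1), so the Col-0 pair was unequal in depth, and the library labelled hfr1 pil1 held 14684713 reads. The low R:FR libraries had factors of 1.63 and 1.28 (Col-0) and 0.723 (hfr1 pil1). The 2 Col-0 white light libraries, called library 1 and library 2 below, differed beyond what counting reads alone would give (chi-square per gene 2.52, where sampling gives 1), with an SD of their log2 difference of 0.21. The Col-0 low R:FR pair had a chi-square per gene of 3.00 and an SD of 0.175. The fit took its spread from both Col-0 pairs together and partly shared it across genes. Nothing says whether the libraries of a pair came from separate plants, so p-values measure only a spread between libraries that may be technical. The test assumed that the lone library labelled hfr1 pil1 varies like Col-0. Genes were called at an adjusted p under 0.05 in edgeR's quasi-likelihood test with Benjamini-Hochberg (BH) adjustment, and "rose", "fell", "higher" and "lower" are used of called genes. A log2 value followed by ± is the fitted log2 fold change with its approximate standard error (SE). A log2 ratio is that of the deposited values after 10.8 normalized counts were added, which understates the change of low genes. A fold is the plain ratio of the deposited values.

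Most called genes were lower in the library labelled hfr1 pil1. In it 118 genes were higher (0.587% of those tested) and 384 were lower (1.91%). The higher genes changed little, with a median fitted log2 difference of 0.50, and the lower genes by more, with a median of -0.87. In the deposited values a 2-fold or larger increase was seen for 7 genes (0.0348%) and a 2-fold or larger decrease for 157 (0.78%), and the median log2 ratio over all genes was -0.0037. The plot of the difference by level shows that the lower genes spread over the whole range of levels. The calls were spread over the 5 nuclear chromosomes, from 1.54% lower on chromosome 4 to 2.04% on chromosome 2. DESeq2 called 21 genes higher and 107 lower. With Col-0 library 1 left out the counts were 219 and 647, and with library 2 left out 93 and 349.

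**Figure D1:**
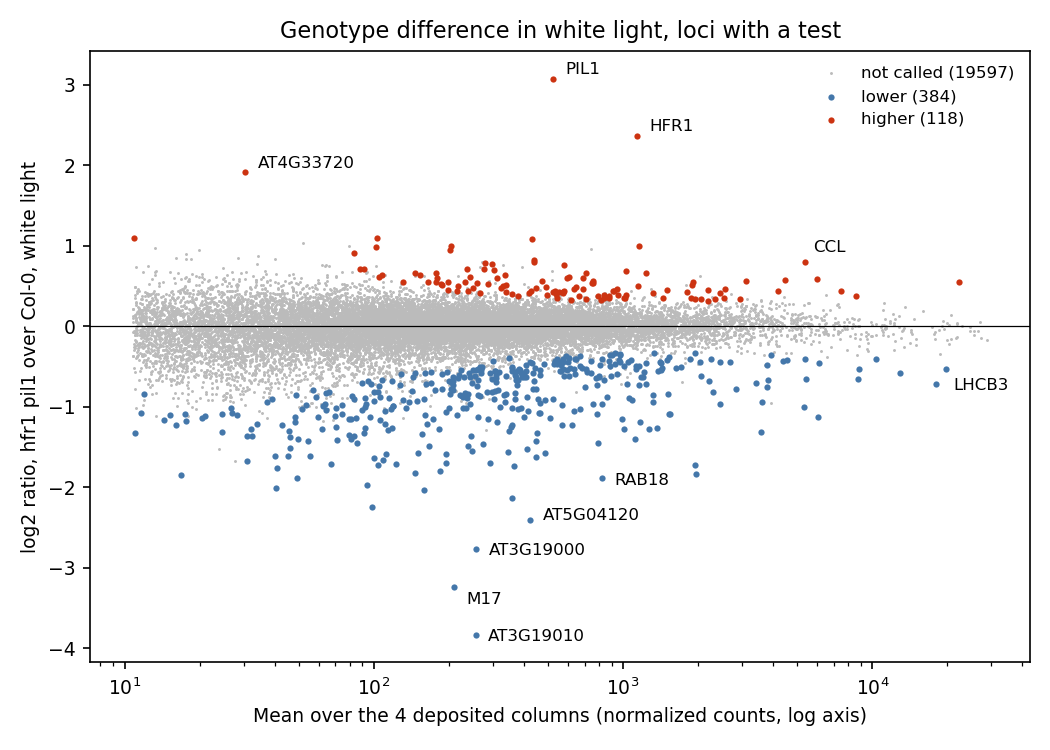
Log2 ratio of the library labelled hfr1 pil1 over Col-0 in white light (vertical axis) against the mean over the 4 deposited columns in normalized counts (horizontal log axis), 1 point per tested locus. Red points are the 118 higher and blue points the 384 lower genes, and PIL1 and HFR1 stand above all others.

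The targeted genes came first, since they check the labels, and both were higher in the library labelled hfr1 pil1. HFR1 (AT1G02340) stood at 22.2 and 33.6 normalized counts in Col-0 libraries 1 and 2, against 189 in the library labelled hfr1 pil1, a 6.79-fold difference (2.82 ± 0.21 SE, edgeR BH-adjusted p = 2.08e-05). PIL1 (AT2G46970) stood at 12.7 and 20.4 in Col-0, against 220 in that library, a 13.3-fold difference (3.79 ± 0.25 SE, edgeR BH-adjusted p = 8e-06). Neither gene's groups overlapped. Counts over a whole gene do not show where an insertion lies or whether a transcript is complete, so the line is called the library labelled hfr1 pil1 throughout, and every direction below rests on that label. In Col-0 in low R:FR, HFR1 reached 2046 and 2359, far above the level in that library, and PIL1 reached 241 and 313, a little above it.

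HFR1 and PIL1 were the only called genes among the 18 tested bHLH factors of the shade response. The transcripts of PIF1, PIF3, PIF4, PIF5 and PIF7, the growth-promoting partners of HFR1, were not called, and neither were PAR1 and PAR2, related shade-induced brakes. PIF4 differed by -0.18 ± 0.13 SE (edgeR BH-adjusted p = 0.598) and PIF5 (PIL6 in the reference) by -0.30 ± 0.10 SE (edgeR BH-adjusted p = 0.177). Of 14 shade-induced regulators none was called by edgeR, DESeq2 or limma-voom, and 2 passed an unadjusted p of 0.05. HB-2 (AT4G16780), a homeodomain factor that is quickly induced by shade, stood at 55.6 and 80.3 normalized counts in Col-0, against 60.8 in the library labelled hfr1 pil1. ST2A (AT5G07010), a sulfotransferase that inactivates a jasmonate precursor, stood at 46.1 and 39.6 in Col-0, against 40.8 in that library. IAA29 (AT4G32280), an auxin-induced repressor, stood at 6.35, 8.39 and 4.62 in the same order. For HB-2 and ST2A the library labelled hfr1 pil1 lay between the Col-0 pair, and for IAA29 it lay just below it. In low R:FR, where 0.995% of all tested genes were higher and 1.43% lower, 8 of these 14 regulators were higher.

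Growth hormone lists were close to the background as well. None of the 23 tested auxin response genes, 16 auxin synthesis and transport genes, 12 brassinosteroid genes, 13 cytokinin genes, 10 ethylene genes and 28 genes of photoreceptors and light signalling was called by edgeR, DESeq2 or limma-voom. The numbers at an unadjusted p under 0.05 were 2, 1, 1, 1, 3 and 5 in that order. Of all 20099 tested genes, 1202 passed that threshold with a positive and 1725 with a negative difference. Without Col-0 library 1 edgeR called 1 auxin response and 1 ethylene gene higher and 1 auxin synthesis and transport gene lower. In the gibberellin list 1 of 18 genes was called, AT5G14920, a gibberellin-regulated family protein. It stood at 459 and 425 normalized counts in Col-0, against 893 in the library labelled hfr1 pil1 (1.01 ± 0.09 SE, edgeR BH-adjusted p = 0.000126), and was higher in low R:FR too (0.44, edgeR BH-adjusted p = 0.0110). Among 23 cell wall loosening genes XTH9 and XTH16 were higher and XTH17 lower, where 0.587% of all tested genes were higher and 1.91% lower. These 3 are xyloglucan-modifying enzymes of the wall. DESeq2 called none of the 23 genes. XTH17 stood at 170 and 224 in Col-0, against 110 in that library (-0.81 ± 0.17 SE, edgeR BH-adjusted p = 0.0221). The calls on XTH9 and XTH16 were lost without Col-0 library 2, at adjusted p = 0.0940 and 0.0753, and that on XTH16 also without library 1, at 0.0854.

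**Figure D2:**
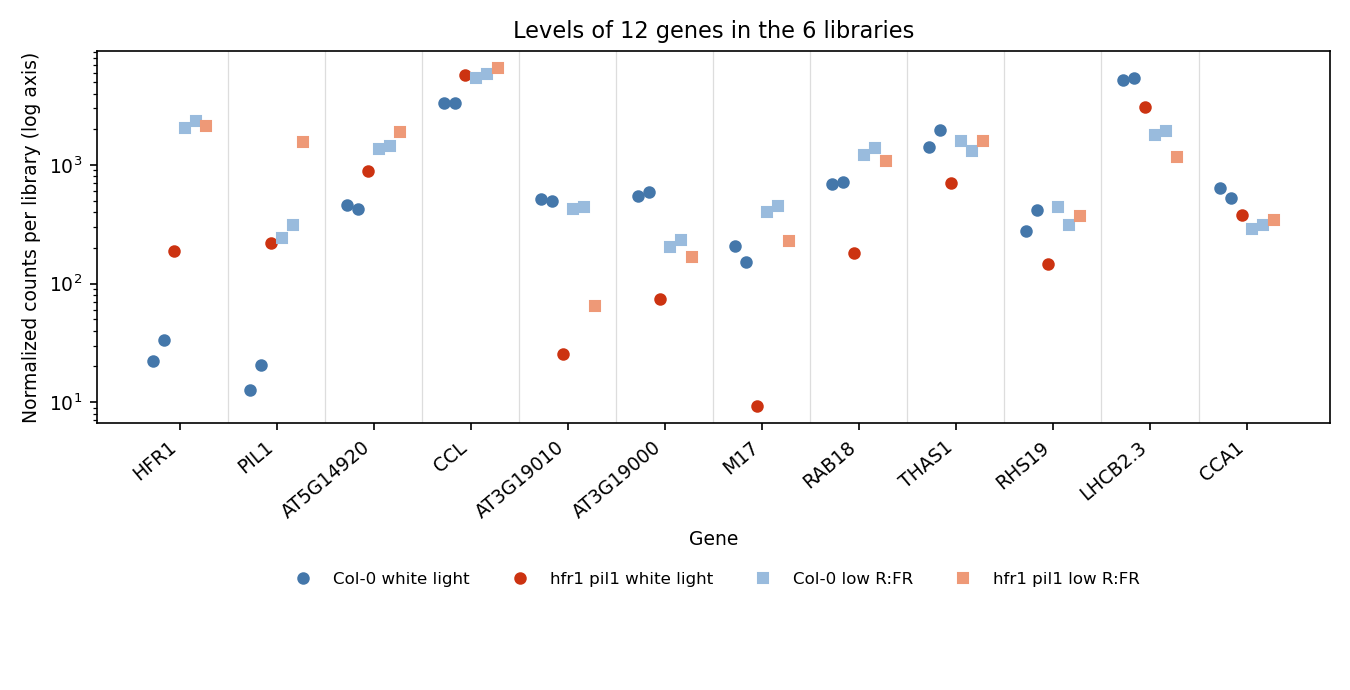
Normalized counts of 12 genes (vertical log axis) in each of the 6 libraries, 1 point per library, circles for white light and squares for low R:FR. HFR1 at 189 and PIL1 at 220 in the white light library labelled hfr1 pil1 lie above the Col-0 white light pair, and AT3G19010 at 25.4, M17 at 9.24 and RAB18 at 182 lie below it.

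Beyond HFR1 and PIL1 the higher genes formed no large group. Among called nuclear genes that have a symbol and averaged at least 54 normalized counts, the next were UMAMIT29 (AT4G01430), a member of a transporter family that moves amino acids, and CCL (AT3G26740), a CCR-like protein. UMAMIT29 stood at 68.3 and 50.3 normalized counts in Col-0, against 121 in the library labelled hfr1 pil1 (0.99 ± 0.20 SE, edgeR BH-adjusted p = 0.0179). CCL, one of the more abundant called genes, stood at 3322 and 3340 in Col-0, against 5793 in that library (0.80 ± 0.08 SE, edgeR BH-adjusted p = 0.000401). The Col-0 pair of CCL was almost level, and the third library was 1.74-fold above it. The cold-regulated genes COR15B and COR27, the plastid chaperone gene RbcX1, MEE14, EMB2729 and the blue copper protein gene BCB were also higher, at 1.59-fold to 1.74-fold. DESeq2 called CCL and MEE14 but not UMAMIT29, COR15B, COR27, RbcX1, EMB2729 or BCB. Without Col-0 library 1 the calls on BCB and COR27 were lost, at adjusted p = 0.105 and 0.0875.

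Several loci without a symbol were higher as well and were picked out after their values were seen. AT4G33720, annotated as a cysteine-rich secretory (CAP) protein, stood at 29.4 and 7.19 normalized counts in Col-0, against 99.4 in the library labelled hfr1 pil1 (2.29 ± 0.37 SE, edgeR BH-adjusted p = 0.00683). Its Col-0 libraries differed widely, so the size of this difference depends on the library compared. AT2G05540, a glycine-rich protein, stood at 65.1 and 53.9 in Col-0, against 139 in that library (1.19 ± 0.19 SE, edgeR BH-adjusted p = 0.00614). AT1G07050, a CCT motif protein, stood at 170, 201 and 382 in the same order (1.06 ± 0.14 SE, edgeR BH-adjusted p = 0.00193). AT1G17400 rested on few reads, 4 and 1 in Col-0 and 22 in the library labelled hfr1 pil1.

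The lowest ratio of all called genes belonged to AT3G19010, annotated as a 2-oxoglutarate and Fe(II)-dependent oxygenase, an enzyme family that modifies hormones and secondary metabolites. It stood at 515 and 493 normalized counts in Col-0, against 25.4 in the library labelled hfr1 pil1, a 19.8-fold difference (-4.31 ± 0.16 SE, edgeR BH-adjusted p = 2.65e-08). Its neighbour AT3G19000, of the same family, stood at 543 and 594 in Col-0, against 74.7 in that library (-2.92 ± 0.15 SE, edgeR BH-adjusted p = 4.76e-07). Between them AT3G19002, annotated as other RNA, stood at 92.1, 83.9 and 13.9 in the same order (-2.67 ± 0.29 SE, edgeR BH-adjusted p = 0.000576). The 3 loci lie side by side at chr3:6553440-6558648 (TAIR10.1). AT3G19002 is on the plus strand and overlaps AT3G19000 on the minus strand, and since the sources used here do not say that counting used strand, their reads cannot be told apart. In low R:FR AT3G19010 was also lower, at 423 and 438 in Col-0 and 65.0 in the library labelled hfr1 pil1 (-2.72, edgeR BH-adjusted p = 1.10e-06). AT3G19000 was not called there, at 201 and 232 in Col-0 and 167 in that library. These loci were named after their values were seen.

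Such runs of neighbouring lower genes appeared at 4 other places, and 1 run was higher. A run here is at least 3 called genes in the same direction with at most 1 tested uncalled gene between neighbours. The lower runs were MLP28, MLP34 and AT1G70880 on chromosome 1, MLP-300B, JAL33 and JR1 on chromosome 3, and AT5G37990, AT5G38000, AT5G38010 and AT5G38020 on chromosome 5. The last lower run, on chromosome 5 as well, was the thalianol gene cluster described below. The higher run was CWLP, AT3G22121 and AT3G22142 on chromosome 3, where the log2 ratios were 0.46 to 0.77. Several of these runs hold related copies whose reads the authors' counting could have split among them. A gene in 1 such run, AT3G19010, was also called in the same direction in low R:FR, and no gene of the other 5 runs was.

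Late-embryo and abscisic acid (ABA) genes were among the lowest in the library labelled hfr1 pil1. These genes encode dehydrins, oil-body proteins and other proteins that protect cells as seeds dry, and in seedlings they are induced by ABA, drought and cold. M17 (AT2G41260), a late-embryogenesis-abundant protein gene, had the lowest ratio of any named gene with a symbol. It stood at 206 and 151 normalized counts in Col-0, against 9.24 in the library labelled hfr1 pil1, a 19.3-fold difference on 12 reads (-4.28 ± 0.31 SE, edgeR BH-adjusted p = 2.08e-05). RAB18 (AT5G66400), the ABA-responsive dehydrin, stood at 687 and 716 in Col-0, against 182 in that library, 3.86-fold lower (-1.95 ± 0.12 SE, edgeR BH-adjusted p = 4.32e-06). The Col-0 pair of RAB18 was nearly level and lay well above the third library.

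Of 17 tested genes in the cold, drought and ABA list 7 were lower and 1, COR15B, was higher, with a median log2 ratio of -0.42 against -0.0037 over all genes. The lower members were RAB18, KIN1, LTI65, HAI1, P5CS1, HAB1 and COR47. KIN1 (AT5G15960), a small cold- and ABA-induced protein, stood at 376 and 591 in Col-0, against 138 in the library labelled hfr1 pil1 (-1.78 ± 0.28 SE, edgeR BH-adjusted p = 0.00598). LTI65 (AT5G52300), also an ABA-responsive stress protein, stood at 175, 218 and 64.7 in the same order (-1.58 ± 0.18 SE, edgeR BH-adjusted p = 0.000717). HAI1 (AT5G59220), an ABA-induced PP2C phosphatase that damps ABA signalling, stood at 123, 162 and 57.8 (-1.27 ± 0.21 SE, edgeR BH-adjusted p = 0.00683). P5CS1, the rate-limiting enzyme of proline synthesis, was 1.45-fold lower. The list had 2 calls under DESeq2, 12 lower without Col-0 library 1 and 5 without library 2. In low R:FR 1 of the 17 genes was lower and none was higher, with a median log2 ratio of 0.03.

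LEA7 (AT1G52690), another late-embryo protein gene outside both lists, stood at 231 and 216 in Col-0, against 73.2 in the library labelled hfr1 pil1 (-1.62 ± 0.16 SE, edgeR BH-adjusted p = 0.000363). In the seed storage and late embryo list 7 of 13 members passed the filter on low values, and 4 of these were lower, M17, OLEO2, PER1 and OLEO1. OLEO2 (AT5G40420), an oil-body coat protein, stood at 55.6 and 31.2 in Col-0, against 6.93 in that library (-2.69 ± 0.51 SE, edgeR BH-adjusted p = 0.0138). The other 6 members had a mean under 10.8 normalized counts. The summed level of all 13 was 472 and 308 in Col-0 and 68.5 in the library labelled hfr1 pil1. The call on OLEO1 was lost without Col-0 library 1 (adjusted p = 0.0800), and the list had 6 calls without library 2 and 2 under DESeq2. In low R:FR the same sums were 686 and 780 in Col-0 and 531 in the library labelled hfr1 pil1, and M17 was the only member of this list called lower there.

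Of the called members of the ABA list, the 4 with the largest absolute log2 ratios were RAB18, KIN1, LTI65 and HAI1, all lower. COR15B, the called member that was higher, was not among them. The promoters of these 4 and of M17 are shown because ABA-responsive transcription factors are known to bind elements with the core ACGTG. Each is the 250 bases before the annotated gene start in RefSeq's TAIR10.1, written 5′ to 3′ along the gene, with ACGTG on either strand (ACGTG or CACGT) in capitals. The core is also part of the G-box CACGTG, which PIFs and other bHLH proteins bind.
M17 promoter (chr2:17206202-17206451, plus strand): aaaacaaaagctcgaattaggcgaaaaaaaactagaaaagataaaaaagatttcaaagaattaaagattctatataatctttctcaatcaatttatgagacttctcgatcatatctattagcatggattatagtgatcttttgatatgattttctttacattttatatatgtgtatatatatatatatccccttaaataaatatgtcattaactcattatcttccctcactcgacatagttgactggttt
RAB18 promoter (chr5:26519448-26519697, minus strand): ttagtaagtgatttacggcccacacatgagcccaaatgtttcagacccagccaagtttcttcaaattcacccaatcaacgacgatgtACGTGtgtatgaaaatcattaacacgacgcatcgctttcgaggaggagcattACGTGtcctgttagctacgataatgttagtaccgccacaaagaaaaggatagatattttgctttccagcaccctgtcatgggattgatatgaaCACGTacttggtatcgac
KIN1 promoter (chr5:5209467-5209716, plus strand): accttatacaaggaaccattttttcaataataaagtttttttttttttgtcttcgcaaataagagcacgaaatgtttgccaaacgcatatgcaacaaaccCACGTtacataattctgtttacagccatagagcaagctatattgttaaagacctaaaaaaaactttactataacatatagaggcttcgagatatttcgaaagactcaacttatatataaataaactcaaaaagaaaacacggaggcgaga
LTI65 promoter (chr5:21236771-21237020, plus strand): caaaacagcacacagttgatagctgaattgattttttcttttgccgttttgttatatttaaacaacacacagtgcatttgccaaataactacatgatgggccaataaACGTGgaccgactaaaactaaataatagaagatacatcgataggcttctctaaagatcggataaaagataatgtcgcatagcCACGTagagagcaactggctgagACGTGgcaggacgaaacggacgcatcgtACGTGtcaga
HAI1 promoter (chr5:23896940-23897189, minus strand): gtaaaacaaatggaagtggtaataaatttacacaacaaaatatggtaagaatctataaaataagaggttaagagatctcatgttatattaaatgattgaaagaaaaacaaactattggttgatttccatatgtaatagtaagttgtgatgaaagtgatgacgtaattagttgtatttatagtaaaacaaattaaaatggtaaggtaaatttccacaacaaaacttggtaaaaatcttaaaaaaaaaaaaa
RAB18 held 3 matches, LTI65 held 4, KIN1 held 1, and M17 and HAI1 held none in this window. None of the 5 windows held CACGTG. The core was found in 170 of 384 windows of lower genes (44.3%), in 38 of 117 of higher genes with a window (32.5%) and in 4782 of 19934 windows of all tested genes (24.0%). CACGTG was found in 15.9%, 6.84% and 7.43% of these windows in the same order. By list the core was found in 8 of 17 windows of the ABA list (47.1%) and in 13 of 24 of the root hair list (54.2%). Both shares were above the 24.0% of all tested genes, and that of the ABA list was not above that of the root hair list. These shares are descriptions of letters in a window, and a match is not a binding site.

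Genes known from root hairs were also lower, although the samples are labelled as shoots. Of 24 tested root hair genes 11 were lower and none was higher, with a median log2 ratio of -0.86. They included the expansins EXPA7 and EXPA18 and the wall genes XTH12, XTH13, XTH14, LRX1, PRP1 and PRP3, which serve the tip growth of root hairs, the proton pump gene HA7, RHS19 and G3Pp2. RHS19 (AT5G67400) stood at 280 and 415 normalized counts in Col-0, against 147 in the library labelled hfr1 pil1 (-1.21 ± 0.24 SE, edgeR BH-adjusted p = 0.0202). PRP3 (AT3G62680), a proline-rich wall protein, stood at 386, 469 and 198 in the same order (-1.10 ± 0.18 SE, edgeR BH-adjusted p = 0.00718). The summed level of the 25 listed root hair genes was 3702 in Col-0 library 1, 4999 in library 2 and 2262 in the library labelled hfr1 pil1, which was below both for 24 of 25 genes. It was below both for 4 of 14 reference transcripts, and the share over all tested genes was not counted. Col-0 library 2 was above library 1 for 23 of the 25, so the Col-0 pair itself differed along the same genes. Without library 1 the list had 18 lower genes, without library 2 it had 9, and DESeq2 called 2. In low R:FR none of the 24 tested root hair genes was called, and their median log2 ratio was 0.06.

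Most thalianol and marneral genes, which make root triterpenes from gene clusters on chromosome 5, were lower. Of the 9 tested genes of this list, which also holds the triterpene synthase gene BARS1 on chromosome 4, 6 were lower and none higher, with log2 ratios from -2.03 to 0.97 and a median of -1.27. THAS1 (AT5G48010), thalianol synthase, stood at 1422 and 1981 in Col-0, against 706 in the library labelled hfr1 pil1 (-1.26 ± 0.17 SE, edgeR BH-adjusted p = 0.00234). CYP708A2 and CYP705A5, which oxidise thalianol, and AT5G47980, an acyltransferase family gene, were called alongside it. MRN1 (AT5G42600), marneral synthase of the second cluster, stood at 218, 354 and 74.7 in the same order (-1.90 ± 0.25 SE, edgeR BH-adjusted p = 0.00232). Its neighbour CYP705A12 stood at 136, 239 and 37.7, 4.96-fold lower. Here too Col-0 library 2 was above library 1, for 8 of the 9 genes, and the library labelled hfr1 pil1 lay below both for 8 of 9. The share of all tested genes below both was not counted. DESeq2 called 5 of the 9 lower, and without Col-0 library 1 there were 7 lower and 1 higher. In low R:FR none of these 9 genes was lower, and MRN1 was higher (1.04, edgeR BH-adjusted p = 0.0396).

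The other root lists had smaller shares of called genes or calls in both directions. Of 15 suberin genes 2 were lower, CYP86A1 and FAR5, which make the fatty acids and alcohols of suberin, and the median log2 ratio was -0.43. The suberin count was 6 without Col-0 library 1 and 0 with DESeq2. Of 11 Casparian strip genes and 5 root tip genes none was called by edgeR, DESeq2 or limma-voom, and 3 and 0 passed an unadjusted p of 0.05. Without Col-0 library 1 edgeR called 2 Casparian strip genes lower, and with white light libraries only or without Col-0 low R:FR library 1 it called 1. Among 22 root transport and metabolism genes 4 were lower (HAK5, BGLU21, BGLU22 and TIP2;3) and 1 was higher (IRT1). HAK5 (AT4G13420), a potassium transporter, stood at 285 and 242 in Col-0, against 146 in the library labelled hfr1 pil1 (-0.87 ± 0.17 SE, edgeR BH-adjusted p = 0.0155). TIP2;3 (AT5G47450), a root tonoplast aquaporin, stood at 117, 134 and 35.4 in the same order and was lower in low R:FR too. The calls on IRT1, BGLU21 and BGLU22 were lost without Col-0 library 2, at adjusted p = 0.0673, 0.0782 and 0.0709. Without library 1 the list had 4 higher and 6 lower genes, and DESeq2 called 1 lower. Among 19 aquaporin genes, TIP2;3 included, 3 were lower, the others being PIP2;4 and TIP4;1, and DESeq2 called 1.

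Transcripts of the root lists were present in every white light library, as the sums below show. PYK10, a beta-glucosidase gene of the root transport and metabolism list, stood at 30068 normalized counts as the authors' Col-0 mean. It stood at 25173 in the library labelled hfr1 pil1, with no test and no split of the Col-0 mean by library. Against that, the 35 light-harvesting, photosystem and Rubisco genes with all libraries summed to 578778 and 591580 in Col-0 and 524723 in the library labelled hfr1 pil1. The summed Casparian strip level was 1504, 1646 and 1336 in the same order, the suberin level 3896, 4332 and 3309, and the root tip level 107, 125 and 119. The share of root tissue in each library was not measured, and its part in the lower root hair and triterpene levels was not tested. In bulk samples fewer cells of a type and less RNA per cell cannot be told apart.

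**Figure D3:**
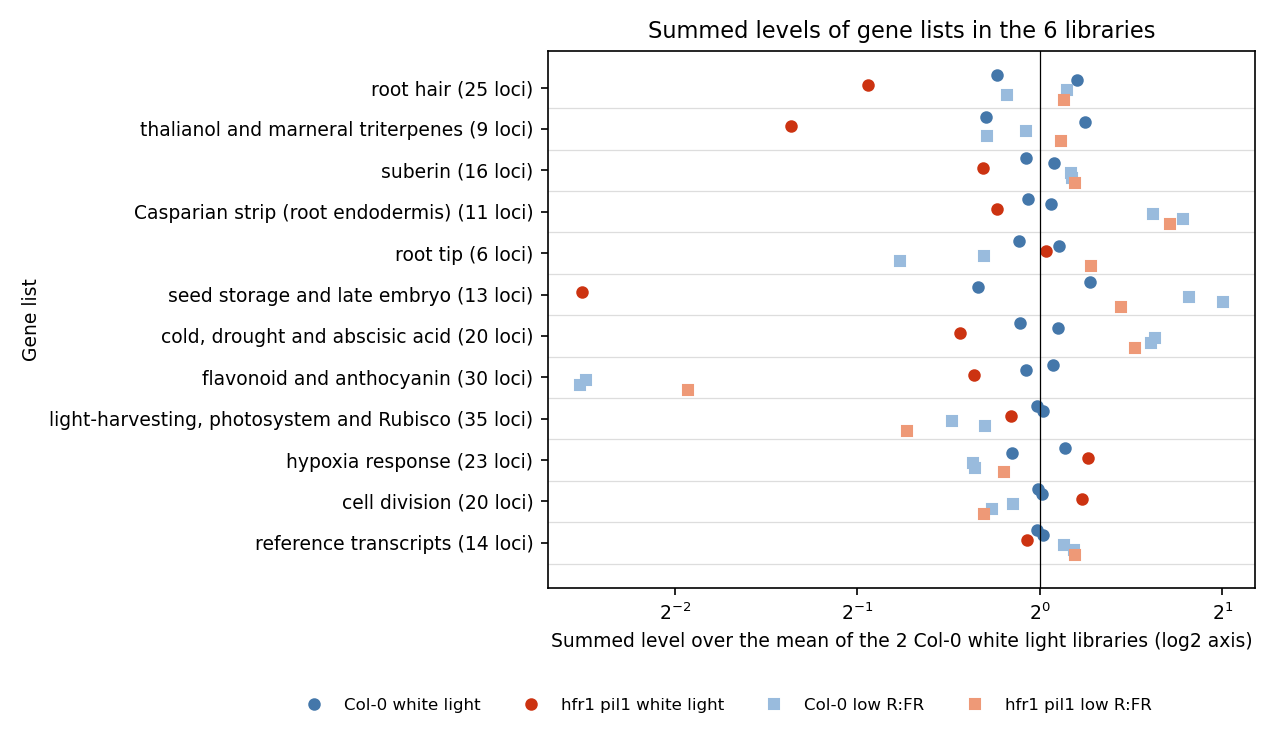
Summed level of 12 gene lists in each library, divided by the mean of the 2 Col-0 white light libraries (log2 axis), 1 point per library, with library 1 drawn above library 2. In white light the root hair sum of the library labelled hfr1 pil1 was 52.0% of the Col-0 mean, the triterpene sum 38.9% and the root tip sum 102%.

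Light-harvesting genes were lower in the library labelled hfr1 pil1, all of them antenna proteins of photosystem II. Of 35 tested genes of the light-harvesting, photosystem and Rubisco list 6 were lower and none was higher. LHCB2.3 (AT3G27690) stood at 5182 and 5383 normalized counts in Col-0, against 3070 in that library (-0.78 ± 0.08 SE, edgeR BH-adjusted p = 0.000576). LHCB2.2 stood at 7371, 7432 and 4686 in the same order, LHCB2.1 at 10968, 11577 and 7165, and CAB2 at 16292, 15687 and 10734. LHCB3 and LHCB4.2 were 1.45-fold and 1.33-fold lower. The recovered Col-0 pair was close for each of these, but where several splits into reads existed, the 1 within 2-fold was kept. Col-0 white light means with several splits began at 13333.5 normalized counts, and the mean of CAB2 was 15990. With only loci of a single solution, 14 genes of the list were tested and 3 were lower. In the main fit all 6 were lower in low R:FR too, and all 6 were lower by DESeq2 in white light. LHCB2.1, LHCB2.2 and LHCB2.3 are near-identical copies, as are CAB2 and its neighbours, so the split of reads among them is uncertain. The 8 members without a test, which were too abundant to be split into whole reads, had log2 ratios from -0.43 (LHCA4) to 0.14 (RBCS2B), and the median over all 43 was -0.14. In the chlorophyll synthesis list 1 of 16 genes was lower, HEMA1, and that call was lost without Col-0 library 2 (adjusted p = 0.118), while without either Col-0 low R:FR library 3 were lower.

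Anthocyanin and flavonoid enzymes were mildly lower. Of 28 tested genes 7 were lower and none higher, with a median log2 ratio of -0.29. TT4 (AT5G13930), chalcone synthase at the entry of the pathway, stood at 10432 and 10014 in Col-0, against 7699 in the library labelled hfr1 pil1 (-0.41 ± 0.10 SE, edgeR BH-adjusted p = 0.0448). F3H (AT3G51240), flavanone 3-hydroxylase, stood at 2288, 2083 and 1556 in the same order (-0.49 ± 0.10 SE, edgeR BH-adjusted p = 0.0159). DFR, dihydroflavonol reductase of the anthocyanin branch, stood at 2939, 2275 and 1809, and its call was lost without Col-0 library 1 (adjusted p = 0.0612), as was that on AT1G03940 (0.109). GSTF12, needed for anthocyanin transport into the vacuole, was 1.39-fold lower. Without library 1 the list had 3 lower genes, without library 2 it had 9, and DESeq2 called none. In low R:FR 5 of these 28 genes were higher in the library labelled hfr1 pil1 and none was lower.

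The clock genes moved in both directions. Of 24 tested genes 4 were lower and 3 higher. CCA1 (AT2G46830) and LHY (AT1G01060), the MYB factors of the morning, were lower, at 643, 531 and 377 and at 962, 807 and 606 normalized counts in Col-0 library 1, Col-0 library 2 and the library labelled hfr1 pil1. AT3G54500 and AT5G06980 were lower as well. TOC1 (AT5G61380), an evening gene that represses CCA1, was higher at 721, 758 and 945 in the same order (0.36 ± 0.08 SE, edgeR BH-adjusted p = 0.0397). PRR3 stood at 274, 258 and 384 and FKF1, a blue light receptor of the evening, at 125, 143 and 218. CCA1 (-0.65 ± 0.12 SE) had an edgeR BH-adjusted p of 0.0124 and LHY (-0.55 ± 0.11 SE) one of 0.0150. DESeq2 called 1 lower and none higher, and the time of harvest is not given in the sources used here, so its part was not tested. The call on AT5G06980 was lost without Col-0 library 2 (adjusted p = 0.0827).

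Stress and nutrient lists gave smaller counts. Of 18 jasmonate genes 4 were lower, VSP1, VSP2, AOS and AOC1. VSP2 (AT5G24770), a vegetative storage protein induced by jasmonate, stood at 1960 and 2259 in Col-0, against 917 in the library labelled hfr1 pil1 (-1.20 ± 0.13 SE, edgeR BH-adjusted p = 0.000718). AOS and AOC1 encode enzymes of jasmonate synthesis and were 1.32-fold and 1.44-fold lower. Of 14 phosphate starvation genes 2 were lower, the galactolipid synthase gene MGDC and the pyrophosphatase gene PS2, and all 14 had a log2 ratio below 0. That count was 8 without Col-0 library 1, 3 without library 2 and 0 with DESeq2, and DESeq2 called 1 jasmonate gene. The phosphate starvation list had a median log2 ratio of -0.55, against -0.0037 over all genes. Col-0 library 2 was above library 1 for 15 of its 16 listed genes, against 49.8% of all tested genes. In the heat shock list 1 of 5 genes was lower, the chaperone gene HSP70. Of 16 dark-inducible, sugar starvation and senescence genes DIN2 and SAG29 were lower and DIN10 was higher. The call on SAG29 was lost without Col-0 library 2 (adjusted p = 0.0789) and that on DIN10 without library 1 (0.149).

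Hypoxia genes leaned the other way. Of 21 tested genes 2 were higher, HB1 and AT4G27450. The median log2 ratio was 0.43 against -0.0037 over all genes, and 19 of 21 were above 0. HB1 (AT2G16060), a non-symbiotic haemoglobin induced by low oxygen, stood at 470 and 283 normalized counts in Col-0, against 654 in the library labelled hfr1 pil1 (0.76 ± 0.18 SE, edgeR BH-adjusted p = 0.0440). For HB1, Col-0 library 1 was above library 2 by more than the library labelled hfr1 pil1 was above library 1. The 23 listed hypoxia genes summed to 8815 and 7224 in Col-0 and 9623 in the library labelled hfr1 pil1. Col-0 library 2 was above library 1 for only 4 of them, so the Col-0 pair itself differed along these genes. The count was 10 without library 1 and 2 without library 2, and the call on HB1 was lost without either Col-0 low R:FR library (adjusted p = 0.0513 and 0.0517). Of 23 iron deficiency genes IRT1, the root iron transporter, was higher, and without library 1 the count was 10. The 24 listed iron genes summed to 17229 and 13272 in Col-0 and 17416 in the library labelled hfr1 pil1. In the copper list FSD2 was higher, a call lost without library 2 (adjusted p = 0.0742), and in the flowering list TEM1 was higher, a call lost without library 1 (0.0501). DESeq2 called no gene in the hypoxia, iron deficiency, copper or flowering lists.

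No gene was called by edgeR, DESeq2 or limma-voom in 7 further lists. These were 16 aliphatic glucosinolate genes, 11 indole glucosinolate and myrosinase genes, 11 salicylic acid and immunity genes, 14 nitrogen assimilation genes, 20 cell division genes, 13 wax and lipid transfer genes and 13 reference transcripts. The numbers at an unadjusted p under 0.05 were 5, 1, 3, 6, 7, 3 and 1 in that order. Over all 20099 tested genes they were 1202 with a positive and 1725 with a negative difference. In edgeR 1 salicylic acid and immunity gene was lower when any 1 of the 4 Col-0 libraries was left out and with white light libraries only. Without Col-0 library 1 it also called 1 aliphatic and 1 indole glucosinolate gene higher and 1 wax and lipid transfer gene lower. All but 1 of the 20 cell division genes had a log2 ratio above 0, with a median of 0.18 against -0.0037 over all genes. Col-0 library 2 was above library 1 for 15 of these 20, against 49.8% of all tested genes. The reference transcripts, housekeeping genes used to normalise assays, had ratios between -0.24 and 0.06.

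**Figure D4:**
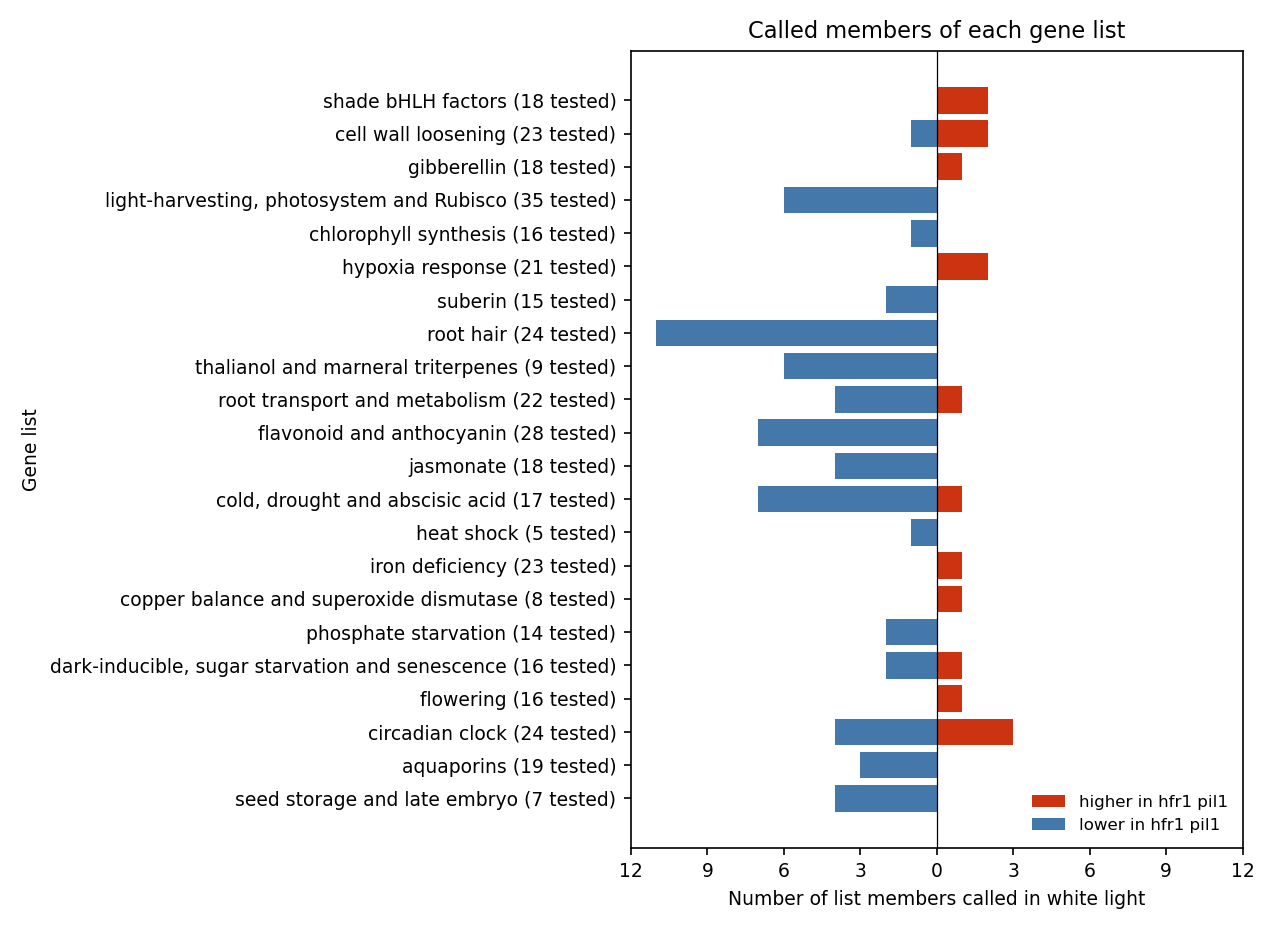
Number of genes called in white light in each gene list with at least 1 call, higher in the library labelled hfr1 pil1 to the right (red) and lower to the left (blue), with the number tested in brackets. The root hair list had 11 of 24 lower and the triterpene list 6 of 9.

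The white light difference was then set beside the genotype difference in low R:FR, which uses other libraries of both genotypes. Of the genes higher in white light 3 were also higher in low R:FR, 2.54% of the white light genes and 1.5% of the low R:FR genes. Of all tested genes 0.995% were higher in low R:FR and 0.587% in white light. Of the genes lower in white light 27 were also lower there, 7.03% of the white light and 9.38% of the low R:FR genes, where 1.43% of all tested genes were lower in low R:FR and 1.91% in white light. In the opposite direction 15 of the 118 genes higher in white light were lower in low R:FR, against 1.43% of all tested genes. Of the 384 genes lower in white light 17 were higher in low R:FR, against 0.995% of all tested genes. The difference between the lights was itself tested and called for 760 of all genes (3.78%). It was called for 279 of the 502 white light genes, a share raised by the fact that these were chosen on 1 side of that difference. Of all tested genes 48.3% were above 0 in low R:FR, of the white light higher genes 25.4%. Of all tested genes 51.7% were below 0 there, of the white light lower genes 44.8%. Across all tested genes the fitted differences in the lights had a Pearson r of -0.01, which describes genes that are not independent replicates.

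The 27 genes lower in both lights were mixed in kind. Besides M17, TIP2;3, VSP2, AT3G19010 and the 6 light-harvesting genes they included ICL (AT3G21720), isocitrate lyase of the glyoxylate cycle that turns seed oil into sugar. ICL stood at 703 and 556 normalized counts in Col-0, against 263 in the library labelled hfr1 pil1 in white light, and at 877, 1070 and 618 in low R:FR. CYP71A12, a cytochrome P450 of camalexin synthesis, stood at 73.1, 99.5 and 33.1 in white light. A further 3 loci of low level were lower in both libraries labelled hfr1 pil1 and were picked out after their values were seen. MRD1 (AT1G53480) had no read in the white light library labelled hfr1 pil1 against 24.6 and 31.2 normalized counts in Col-0, at least 12.1-fold lower when 3 reads are taken as the floor of that library. The low R:FR values were 33.8 and 34.5 in Col-0, against 5.53 in the library labelled hfr1 pil1. SADHU3-2, a retroelement, stood at 67.5, 58.7 and 9.24 in white light and at 98.2, 109 and 20.7 in low R:FR. AT5G35935 stood at 149, 174 and 41.6 in white light and at 161, 186 and 40.1 in low R:FR. None of these 3 loci overlapped between genotypes in either light, which is favoured by their choice from genes called lower in both.

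The genes higher in both lights were PIL1, AT5G14920 and AT4G22505, a lipid-transfer family gene that was picked out after its values were seen. AT4G22505 stood at 2394 and 1828 in Col-0, against 3107 in the library labelled hfr1 pil1 in white light, and at 955, 900 and 1462 in low R:FR. HFR1 was not among them, since in low R:FR its 3 libraries lay together, at 2046, 2359 and 2112.

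**Figure D5:**
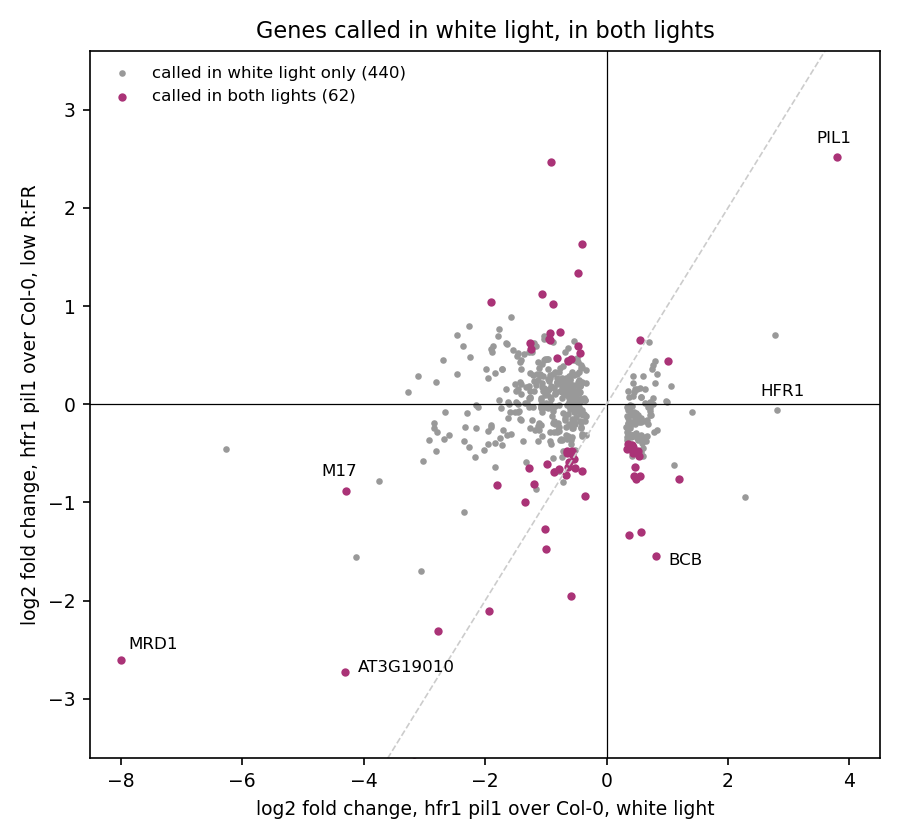
Fitted log2 difference of the library labelled hfr1 pil1 from Col-0 in low R:FR (vertical axis) against that in white light (horizontal axis) for the 502 genes called in white light, 1 point per gene, with the line of equal differences dashed. Purple points are the 62 genes called in both lights in either direction, and HFR1 lies at 2.82 on the horizontal and -0.06 on the vertical axis.

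The lower genes also ran along a difference between the Col-0 libraries themselves. Col-0 library 2 was above library 1 in 281 of the 384 lower genes (73.2%) and in 49.8% of all tested genes. Examples with a wide Col-0 pair were AT5G04120, a phosphoglycerate mutase family gene, at 531 and 1043 normalized counts against 139, and MLP328 at 1762 and 3176 against 685. Examples with a narrow pair were RAB18, LEA7, AT3G19010, AT3G19000, LHCB2.1, LHCB2.2 and LHCB2.3. In each of these the library labelled hfr1 pil1 lay below both Col-0 libraries.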

How the data were processed

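Total RNA of shoots was sequenced on Illumina machines, and the submitters' processing notes name Bowtie and TAIR10, and give no versions, counting tool or strand handling. The deposited signal is read counts that the authors divided by 1 size factor per library, in 4 columns, of which the Col-0 columns are means per the file headers. Every value labelled hfr1 pil1 (100%) was a whole multiple of 1 step within 0.01 reads. Each Col-0 mean was split into whole reads of 2 libraries, by the only solution or, where several existed, the only one with the libraries within 2-fold, for 33545 of 33558 loci. The unit used here is 10.8 normalized counts, the mean column total on the scale of CPM, which served as filter (mean over 4 columns) and pseudocount. The plan assumed no replicates, so that the test on recovered reads fits another unit than planned for the deposited means.

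Recovered reads of 20099 loci (17 could not be split) entered a model in edgeR 4.0.16 (R 4.3.3) that kept the size factors of the authors, with 6 libraries, 1 group per genotype and light and 2 residual degrees of freedom, tested by quasi-likelihood with Benjamini-Hochberg adjustment over all loci. The common coefficient of variation came to 0.0526, with 10.8 prior degrees of freedom. An SE is the size of the log2 fold change over the root of F. The steps were tested on simulated data. Alternatives were limma-voom (limma 3.58.1), DESeq2 1.42.0, TMM factors, other filters and pseudocounts, and leaving out libraries. Counting intervals and floors (3 reads) cover counting error only.

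Symbols, positions and promoters came from RefSeq's TAIR10.1, whose nuclear chromosomes are those of TAIR10 (32825 of 33558 loci matched). Named genes were HFR1 and PIL1, the 12 highest and 12 lowest log2 ratios among called nuclear genes that had a symbol and averaged at least 54 normalized counts, up to 4 called members of each of 38 gene lists, and the 5 highest and lowest called alike in both lights. Others are said to be picked after their values were seen or spell out a list. All members, lists and rules were chosen with earlier results of these data known.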

Additional observations from a re-analysis of the deposited data

Results flagged for a closer look

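For 41 of the 73 genes named by the rule, the genotype difference in white light differed from that in low R:FR, as tested by the interaction term of the edgeR fit with Benjamini-Hochberg adjustment over all genes. The values below are the fitted log2 difference in white light minus that in low R:FR, and since the genes were named for their white light difference, a large value is favoured by the choice. HFR1 had 2.87 ± 0.24 SE (edgeR BH-adjusted p = 6.55e-05) and PIL1 had 1.28 ± 0.32 SE (edgeR BH-adjusted p = 0.0438).

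Among other genes that were higher in white light, BCB had 2.36, IRT1 1.28, DIN10 1.24, XTH9 1.18 and AT4G27450 0.96. FSD2 had 0.93, XTH16 0.87, COR15B 0.85, MEE14 0.82, RbcX1 0.72, CCL 0.58 and AT5G14920 0.56. BCB, IRT1, DIN10, XTH9 and XTH16 were called lower in low R:FR.

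Among late-embryo, abscisic acid and stress genes, M17 had -3.41, OLEO2 -3.14, KIN1 -2.47 and HAI1 -1.80. RAB18 had -1.68 (edgeR BH-adjusted p = 0.000114), LEA7 -1.48, PER1 -1.45, LTI65 -1.28 and HSP70 -0.87. Among genes known from roots, MRN1 had -2.94, CYP705A12 -2.74, AT5G47980 -2.29 and CYP708A2 -1.85. PRP1 had -1.77, XTH12 -1.64, BGLU21 -0.91, TIP4;1 -0.85 and BGLU22 -0.81.

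Of the remaining genes lower in white light, OCT1 had -2.35, MLP328 -2.16, PS2 -1.70, PYD4 -1.69, ICS2 -1.51 and VSP1 -1.50. XTH17 had -1.29, F3H -0.96 and CCA1 -0.85. MRN1 and XTH17 were called higher in low R:FR. The adjusted p-values of these genes in this test ran from 6.55e-05 for HFR1 to 0.0487 for PER1.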

How the results depend on the processing

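The number of genes at least 2-fold higher and lower in the deposited values was 7 and 157. With a pseudocount of 0.1 units it was 40 and 337, with one of 5 units 3 and 50, and with a filter at 5 units 4 genes were higher. Against single Col-0 libraries it ran from 8 to 42 higher and from 105 to 261 lower. The tested counts of 118 higher and 384 lower became 383 and 862 with no filter, 21 and 107 with DESeq2, and 9 and 156 when a 2-fold change was also asked. Leaving out 1 library in turn gave 93 to 219 higher and 349 to 647 lower. Of the 30 genes called alike in both lights, DESeq2 in white light left 18, and leaving out a Col-0 white light library gave 28 to 32. TMM factors, limma-voom, loci with a single solution and white light libraries alone kept both counts within 1.5 times. No named gene changed direction under any of these settings, but 47 lost their call with DESeq2, 8 with limma-voom, 8 without Col-0 library 1 and 9 without library 2. The causes were not tested. No paired analysis was possible because the Col-0 columns are means whose recovered libraries carry no replicate numbers from the labels, and each column labelled hfr1 pil1 holds 1 library. The most abundant genes have no test, and genes with few reads are limited by depth.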
